A study of Mus musculus with 3 samples.

Results

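The genes described here are 10 receptor tyrosine kinases of the EGF, FGF and insulin-like growth factor families and the HGF receptor: Egfr, Erbb2, Erbb3, Erbb4, Fgfr1, Fgfr2, Fgfr3, Igf1r, Insr and Met. They were chosen by name, with earlier results of these data known. All 10 of them, of 17775 genes with a row in at least 1 of the 3 count tables, had a row in all 3. Single-cell RNA sequencing (10x 3′ chemistry) was done on dissociated intermediate lobes of 3-month-old mice, 1 library for each of 3 genotypes. By the labels, the library labelled WT carried Sox9iresCreERT2/+, the library labelled P27NULL carried Sox9iresCreERT2/+ with p27-/-, and the library labelled S2CK carried Sox9iresCreERT2/+ with Sox2fl/+ and p27-/-, so that Cre expressed from Sox9 deletes 1 copy of Sox2 in SOX9-expressing cells and their progeny. The study's methods add a Rosa26ReYFP/+ reporter allele to the genotypes of the single-cell animals. The labels give tamoxifen by gavage at 4 weeks for all 3 libraries, whereas the text of the study places Cre induction around birth for these samples. Each library was a pool of animals, males for WT and both sexes for the other 2, so genotype, pool and library cannot be told apart, and no test between genotypes was possible. P27NULL always means the library labelled so.

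These receptors sit in the cell membrane and signal as pairs. When a secreted or shed growth factor binds, the paired receptors phosphorylate each other and adaptor proteins that feed the RAS-ERK and PI3K-AKT pathways. ERBB2 binds no ligand of its own and works as the partner of the other ErbB receptors, while ERBB3 has little kinase activity and depends on a partner. In the pituitary intermediate lobe, melanotrophs make POMC and its product MSH, and a thin layer of stem cells (SCs) that express SOX2 and SOX9 lines the cleft beside them. Which of these cells has the transcript of a receptor sets which growth factors it could receive.

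The tables held 2020 cells for WT, 4153 for P27NULL and 3488 for S2CK, with 8332285, 15588317 and 19239147 unique molecular identifiers (UMIs, 1 for each captured transcript). Levels are given as CPM, the UMIs of a gene summed over the cells of 1 type in 1 library scaled to a sum of 1000000 UMIs, with an exact Poisson 95% interval. Intervals of levels, shares and ratios cover counting error only and say nothing about mice. Cell types were rebuilt from clusters and named by markers, with 142, 103 and 83 SC-like cells and 1227, 3371 and 2994 melanotroph-like cells in WT, P27NULL and S2CK. The summed level of 6 SC markers was 9919, 8396 and 5268 CPM in SC-like cells and at most 913 CPM in any other type, and no SC marker was at 0 there. The summed level of 7 melanotroph markers was 5484, 7300 and 3545 CPM in melanotroph-like cells and 853, 678 and 647 CPM in SC-like cells. Transcripts of melanotrophs were therefore also counted in the other cells, and Pomc in SC-like cells stood at 14.9%, 9.28% and 15.6% of its melanotroph-like level. Cdkn1b, the gene of p27, went against the label in the library labelled P27NULL, with 33.6 CPM in WT melanotroph-like cells, 31.4 in P27NULL and 16.9 in S2CK. A 3′ tag outside the deleted part would check nothing, and the sources used here do not give that part. Sox2 in SC-like cells was 279, 308 and 134 CPM. Sex-linked transcripts called 0 WT cells female but 18.4% of the P27NULL and 93.9% of the S2CK cells, so sex differed along with genotype. Libraries shared 10 cell barcodes in all, counted pair by pair.

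The 300-base promoters (RefSeq, GRCm38.p6, from 250 bases before to 50 after a transcript start, which for Met lies inside the span of the gene given below) are printed for 3 receptors that stood higher in SC-like cells and for Fgfr2, most of whose UMIs lay in melanotroph-like cells. A promoter entry was matched for 7 of the 10 genes. Because the S2CK genotype removes a copy of Sox2, the letters ACAAT, a core recognised by SOX factors, were searched on both strands and are in capitals where found. The windows lie at chr11:16751953-16752252 for Egfr, chr11:98412234-98412533 for Erbb2, chr6:17463707-17464006 for Met, all on the plus strand, and at chr7:130266759-130267058 on the minus strand for Fgfr2.
Egfr: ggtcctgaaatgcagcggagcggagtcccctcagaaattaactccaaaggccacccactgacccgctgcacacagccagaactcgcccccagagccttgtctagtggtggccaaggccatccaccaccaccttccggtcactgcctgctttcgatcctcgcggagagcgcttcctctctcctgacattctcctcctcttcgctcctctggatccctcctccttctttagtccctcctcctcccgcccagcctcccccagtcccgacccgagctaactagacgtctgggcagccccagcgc
Erbb2: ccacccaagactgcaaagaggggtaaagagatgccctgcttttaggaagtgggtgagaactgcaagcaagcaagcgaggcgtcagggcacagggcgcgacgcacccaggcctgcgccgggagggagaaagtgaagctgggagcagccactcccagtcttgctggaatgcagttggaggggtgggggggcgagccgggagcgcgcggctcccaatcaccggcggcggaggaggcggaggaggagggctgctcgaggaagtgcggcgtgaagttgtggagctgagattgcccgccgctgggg
Met: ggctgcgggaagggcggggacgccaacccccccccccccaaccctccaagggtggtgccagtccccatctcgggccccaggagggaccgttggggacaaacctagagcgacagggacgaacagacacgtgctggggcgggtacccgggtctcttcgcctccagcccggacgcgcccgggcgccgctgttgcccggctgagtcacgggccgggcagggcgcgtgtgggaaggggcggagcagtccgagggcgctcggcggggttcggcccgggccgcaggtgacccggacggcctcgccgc
Fgfr2: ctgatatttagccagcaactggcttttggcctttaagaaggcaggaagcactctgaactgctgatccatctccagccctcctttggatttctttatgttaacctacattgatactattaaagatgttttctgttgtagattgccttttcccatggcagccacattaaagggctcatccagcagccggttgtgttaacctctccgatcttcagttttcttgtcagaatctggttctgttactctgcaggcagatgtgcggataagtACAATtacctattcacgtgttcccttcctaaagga
The letters were found 1 time each in the windows of Fgfr2 and of Erbb4, which also stood higher in SC-like cells, and 0 times in those of Egfr, Erbb2, Met, Fgfr3 and Igf1r, so a match did not separate the receptors by cell type. Of all 32851 windows, 31.0% held at least 1 match. The windows of Egfr, Erbb2, Erbb4 and Met held 15, 21, 17 and 34 CpG dinucleotides and that of Fgfr2 held 4, where the median over all windows was 7. A match of 5 letters is a description and not a binding site.

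Fgfr1 stood far higher in SC-like than in melanotroph-like cells. This receptor, at 8:25518759-25575718 in GRCm38.p6, binds many FGFs and signals chiefly through the adaptor FRS2. In SC-like cells 49, 40 and 73 UMIs of it were counted in WT, P27NULL and S2CK, which is a level of 91.3 CPM (interval 67.5 to 121), 106 CPM (interval 76.0 to 145) and 116 CPM (interval 91.0 to 146). In melanotroph-like cells it was 0.339, 0.308 and 0.294 CPM, from 2, 4 and 5 UMIs. SC-like cells were thus higher in all 3 libraries, by log2 8.07 (6.14 to 11.16), 8.43 (6.96 to 10.37) and 8.62 (7.34 to 10.29). The melanotroph-like level was close to the 0.223, 0.404 and 0.549 CPM that SC transcripts would leave there if they spread in the proportion of the SC markers. Connective-tissue-like cells had 103, 60.1 and 98.3 CPM of Fgfr1 from 13, 10 and 16 UMIs, with intervals that overlapped those of the SC-like cells in each library. Gonadotroph-like cells stood lower, at 24.3, 25.1 and 47.9 CPM. Pituicyte-like cells, the glia of the adjoining neural lobe, had 93.3, 81.6 and 17.3 CPM from 8, 6 and 1 UMIs.

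Fgfr2 had most of its UMIs in melanotroph-like cells, which also held most of all UMIs. It lies at 7:130162451-130266808, and its splice forms, which 3′ tags do not separate, bind different FGFs. Melanotroph-like cells had 8.31 CPM (interval 6.15 to 11.0), 8.02 CPM (interval 6.55 to 9.72) and 10.6 CPM (interval 9.15 to 12.3) from 49, 104 and 181 UMIs in WT, P27NULL and S2CK. These cells held 84.5%, 87.4% and 96.8% of each library's Fgfr2 UMIs, beside 70.8%, 83.2% and 88.4% of all UMIs. In SC-like cells only 3, 2 and 4 UMIs were counted, a level of 5.59, 5.32 and 6.36 CPM. The ratio of SC-like to melanotroph-like cells was log2 -0.57 (-2.90 to 1.06), -0.59 (-3.66 to 1.30) and -0.74 (-2.63 to 0.64), so a difference in Fgfr2 between these cells was not detectable at this depth. Fgfr3, at 5:33721724-33737068, had 5, 3 and 4 UMIs among all cells of each library, 4, 1 and 1 of them in SC-like cells, and was too sparse for a comparison.

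**Figure D1:**
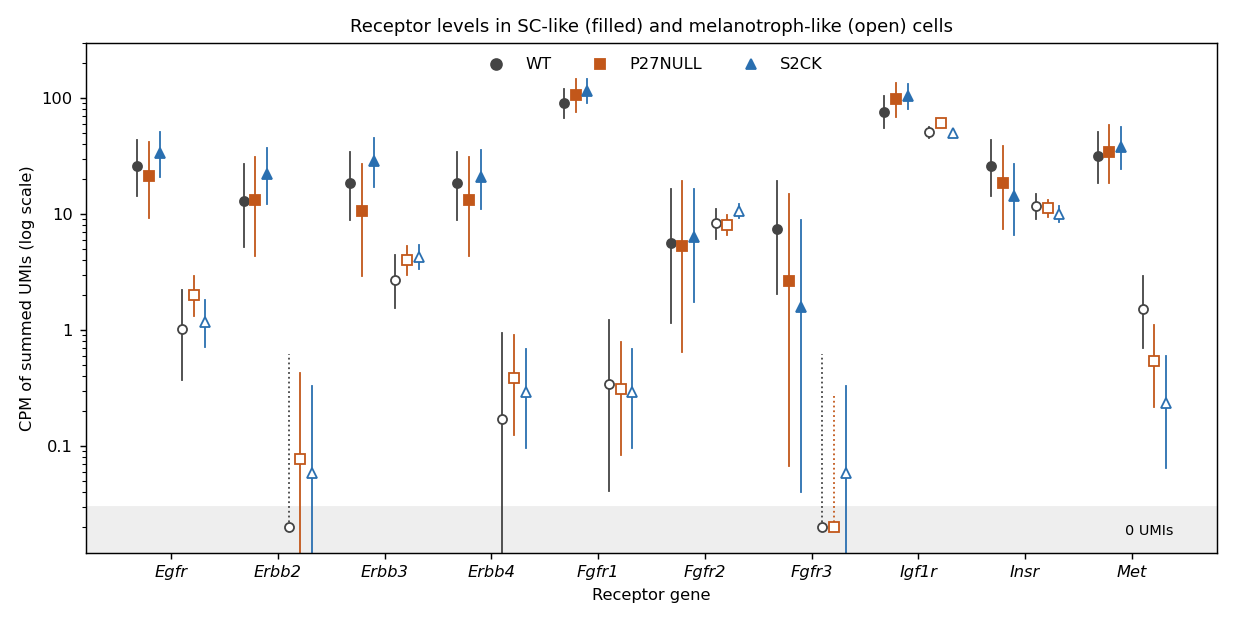
Level of each of the 10 receptors in SC-like and melanotroph-like cells of the 3 libraries, in CPM of summed UMIs on a log axis, with exact Poisson 95% intervals as bars. Fgfr1 sits between 91.3 and 116 CPM in SC-like cells and at or under 0.339 CPM in melanotroph-like cells, whereas Igf1r lies above 50 CPM in both.

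Among the ErbB receptors, Egfr, Erbb2 and Erbb4 were higher in SC-like than in melanotroph-like cells. Egfr, the receptor of EGF and TGF-alpha at 11:16752203-16913907, had 26.1 CPM (interval 14.3 to 43.7), 21.3 CPM (interval 9.18 to 41.9) and 33.4 CPM (interval 20.7 to 51.0) from 14, 8 and 21 UMIs in SC-like cells of WT, P27NULL and S2CK. Its melanotroph-like level was 1.02, 2.01 and 1.18 CPM, and the ratio was 25.6-fold, 10.6-fold and 28.4-fold. The melanotroph-like level of Egfr was above the 0.064, 0.081 and 0.158 CPM that spread of SC transcripts would leave there. Of the other cells, connective-tissue-like cells reached 7.93, 24.0 and 24.6 CPM of Egfr on 1, 4 and 4 UMIs.

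Erbb2, the ligandless partner at 11:98412484-98437716, had 13.0, 13.3 and 22.3 CPM in SC-like cells from 7, 5 and 14 UMIs. Melanotroph-like cells held 0, 1 and 1 UMIs of it among 1227, 3371 and 2994 cells. Endothelial-like cells had 16.3, 19.3 and 0 CPM of Erbb2 on 2, 1 and 0 UMIs. Connective-tissue-like cells had 15.9, 0 and 0 CPM on 2, 0 and 0 UMIs, and pituicyte-like cells 0, 40.8 and 0 CPM on 0, 3 and 0 UMIs. These counts were too few to rank those types against SC-like cells. In WT, where the melanotroph-like sum was at 0, SC-like cells were at least 25.6-fold higher when 3 UMIs are taken for that sum, and the log2 ratio was 7.43 (4.27 to 12.99) in P27NULL and 8.56 (5.85 to 13.97) in S2CK. Erbb4, a receptor of neuregulins at 1:68031884-69108576, was 18.6, 13.3 and 20.7 CPM in SC-like cells and 0.170, 0.386 and 0.294 CPM in melanotroph-like cells. It was also counted in pituicyte-like cells, at 58.3, 54.4 and 17.3 CPM on 5, 4 and 1 UMIs.

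Erbb3 had more UMIs in melanotroph-like cells than any other ErbB gene in each library. This neuregulin receptor, at 10:128567523-128589635, had 16, 52 and 73 UMIs in melanotroph-like cells of WT, P27NULL and S2CK, or 2.71, 4.01 and 4.29 CPM. Spread of SC transcripts in the proportion of the SC markers would leave 0.046, 0.040 and 0.135 CPM there. SC-like cells had 18.6, 10.6 and 28.6 CPM of Erbb3 from 10, 4 and 18 UMIs. The log2 ratio of SC-like to melanotroph-like cells was 2.78 (1.48 to 4.01) in WT and 2.74 (1.90 to 3.50) in S2CK, and 1.41 (-0.52 to 2.85) in P27NULL, where the interval reached 0. Only 1.30%, 1.51% and 2.34% of melanotroph-like cells had a UMI of Erbb3. Of the other ErbB genes, these cells held 6, 26 and 20 UMIs of Egfr, 0, 1 and 1 of Erbb2 and 1, 5 and 5 of Erbb4. Since 3′ tags give no level per length, these counts do not show which partner ERBB3 could have there.

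Met, the receptor of hepatocyte growth factor at 6:17463349-17573980, was 31.7 CPM (18.4 to 50.7; 17 UMIs), 34.6 CPM (13 UMIs) and 38.1 CPM (24 UMIs) in SC-like cells. Melanotroph-like cells had 1.53, 0.540 and 0.235 CPM of Met on 9, 7 and 4 UMIs. SC-like cells held 60.7%, 61.9% and 82.8% of each library's Met UMIs while holding 6.44%, 2.41% and 3.27% of all its UMIs.

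Igf1r and Insr were counted in most cell types. Igf1r, the receptor of IGF1 and IGF2 at 7:67952257-68233668, was the member with the most UMIs, 411, 937 and 989 in the 3 libraries. SC-like cells had 76.4, 98.4 and 103 CPM of Igf1r and melanotroph-like cells 50.7 (45.1 to 56.8), 61.2 (57.0 to 65.6) and 50.1 CPM (46.8 to 53.6). The ratio was 1.51-fold, 1.61-fold and 2.06-fold, with log2 intervals of 0.08 to 1.06, 0.17 to 1.16 and 0.66 to 1.41. Gonadotroph-like cells had 62.0, 54.4 and 81.4 CPM of Igf1r, Pou1f1-lineage-like cells 39.8, 58.9 and 63.7, and corticotroph-like cells 25.6, 39.7 and 39.5. Macrophage-like cells had 23.7, 32.1 and 26.3 CPM. Pituicyte-like cells had 81.6, 122 and 34.5 CPM of Igf1r from 7, 9 and 2 UMIs, and connective-tissue-like cells 23.8, 72.1 and 55.3 CPM from 3, 12 and 9 UMIs. Ordered by level, the intervals of neighbouring endocrine types overlapped in every library, so the order of neighbours is not firm. In WT the corticotroph-like interval (14.0 to 43.0 CPM) lay below the melanotroph-like one (45.1 to 56.8). The Pou1f1-lineage-like cells of P27NULL also carried 3607 CPM of melanotroph markers. Insr, the insulin receptor at 8:3150922-3279649, was 26.1, 18.6 and 14.3 CPM in SC-like cells and 11.7, 11.3 and 10.0 CPM in melanotroph-like cells. Its SC-like to melanotroph-like ratio was log2 1.16 (0.21 to 2.0) in WT, 0.72 (-0.61 to 1.80) in P27NULL and 0.52 (-0.64 to 1.48) in S2CK. For Insr only the WT interval lay above 0. Endothelial-like cells had 48.8, 19.3 and 17.0 CPM of Insr from 6, 1 and 2 UMIs. Pituicyte-like cells had 35.0, 27.2 and 0 CPM from 3, 2 and 0 UMIs, and connective-tissue-like cells 23.8, 30.1 and 0 CPM from 3, 5 and 0 UMIs. Melanotroph transcripts spread in proportion to Pomc would leave 7.53, 5.67 and 7.80 CPM of Igf1r and 1.74, 1.04 and 1.56 CPM of Insr in SC-like cells, under the measured levels.

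**Figure D2:**
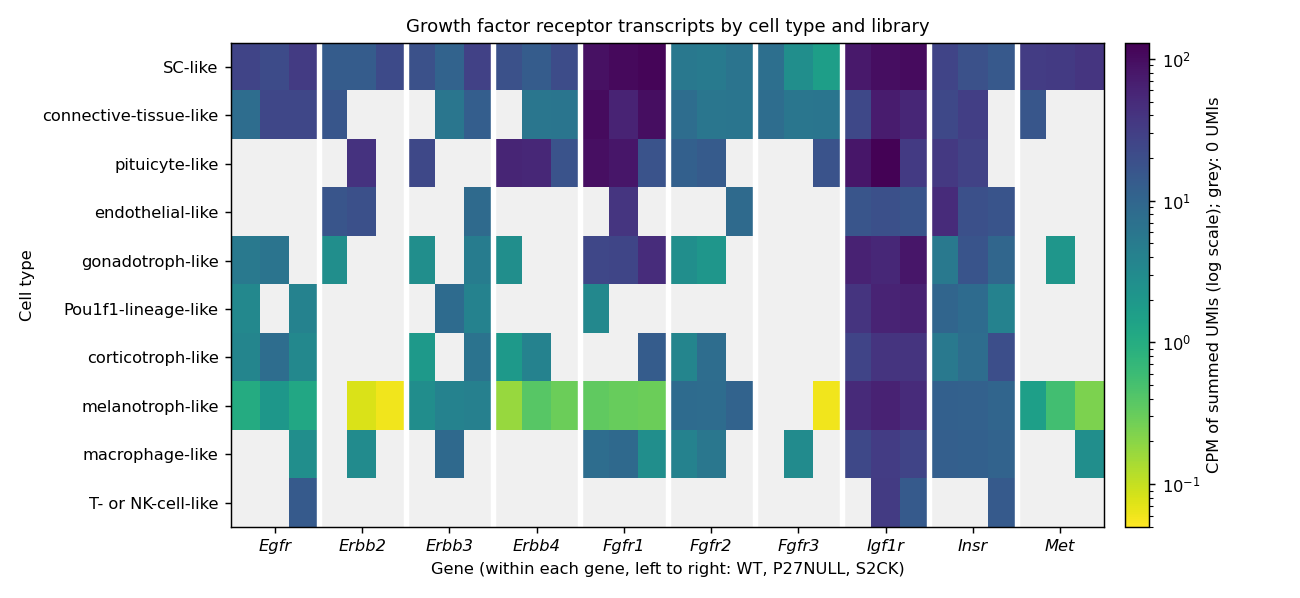
Level of the 10 receptors in every named cell type of the 3 libraries, in CPM of summed UMIs. Fgfr1 is high in SC-like, connective-tissue-like and, in WT and P27NULL, pituicyte-like cells, Fgfr2 stays at or under 13.6 CPM in every type, and Igf1r is counted in nearly all types.

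By the common count, 6 of the 9 receptors with at least 20 UMIs over both types were 2-fold or more higher in SC-like than in melanotroph-like cells in all 3 libraries (Egfr, Erbb2, Erbb3, Erbb4, Fgfr1 and Met), and 0 were 2-fold lower. Of 14047 genes counted the same way, 12.7% were higher and 10.6% were lower. Of the 1490 lower genes, 985 (66.1%) had a sum of 0 UMIs in SC-like cells of some library. Of the 1785 higher genes, 156 (8.74%) had such a sum in melanotroph-like cells. The lower share of all genes thus rests largely on counts of 0 in the SC-like sums. The median log2 ratio of the 9 was 4.37, 3.41 and 4.83 in WT, P27NULL and S2CK, and 0.11, 0.06 and 0.07 over all genes. Because the types were clustered and named from transcripts of the same cells, the comparison of types is a description without a test. The receptors were also chosen with earlier results of these data known, so their share beside that of all genes is no test either. Levels of different genes are not compared here, since 3′ tags give no level per length.

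The share of cells with a UMI follows the depth of the cells, whose median in SC-like cells was 1994, 2359 and 3572 UMIs in WT, P27NULL and S2CK. At least 1 of the 10 receptors was counted in 43.0%, 54.4% and 72.3% of SC-like cells and in 27.4%, 22.7% and 31.1% of melanotroph-like cells. When every cell was thinned to 1000 UMIs the shares were 21.3%, 26.5% and 29.5% against 7.19%, 7.44% and 6.87%. The higher share in SC-like cells thus also stood at equal depth. By family, the thinned share of SC-like cells with an ErbB transcript was 5.88%, 5.01% and 9.39%, against 0.413%, 0.639% and 0.544% of melanotroph-like cells. The thinned share with an FGF receptor transcript was 8.62%, 8.62% and 11.6% of SC-like cells and 0.848%, 0.638% and 1.11% of melanotroph-like cells. For the insulin and IGF receptors these shares were 7.07%, 11.7% and 8.19% against 5.88%, 6.16% and 5.31%, higher in SC-like cells of each library but by a smaller factor than for the other families.

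Melanotroph-like cells formed several clusters per library, among which Igf1r ranged from 35.7 to 68.0 CPM in WT, from 40.6 to 92.0 in P27NULL and from 42.1 to 86.7 in S2CK. The highest P27NULL level was in a cluster of 350 cells with a median of 6396.5 UMIs and the highest S2CK level in one of 157 cells with a median of 6374 UMIs, both deeper than the library's melanotroph-like median of 2777 and 5020. Insr was also high in those clusters, at 15.7 and 21.8 CPM. Fgfr2 ranged from 3.82 to 11.9 CPM over the WT clusters, from 0.990 to 14.4 over those of P27NULL and from 8.21 to 17.5 over those of S2CK. A shallower P27NULL cluster of 391 cells with a median of 2404 UMIs had 74.6 CPM of Igf1r, so level and depth did not always move together. The part of depth was not tested.

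**Figure D3:**
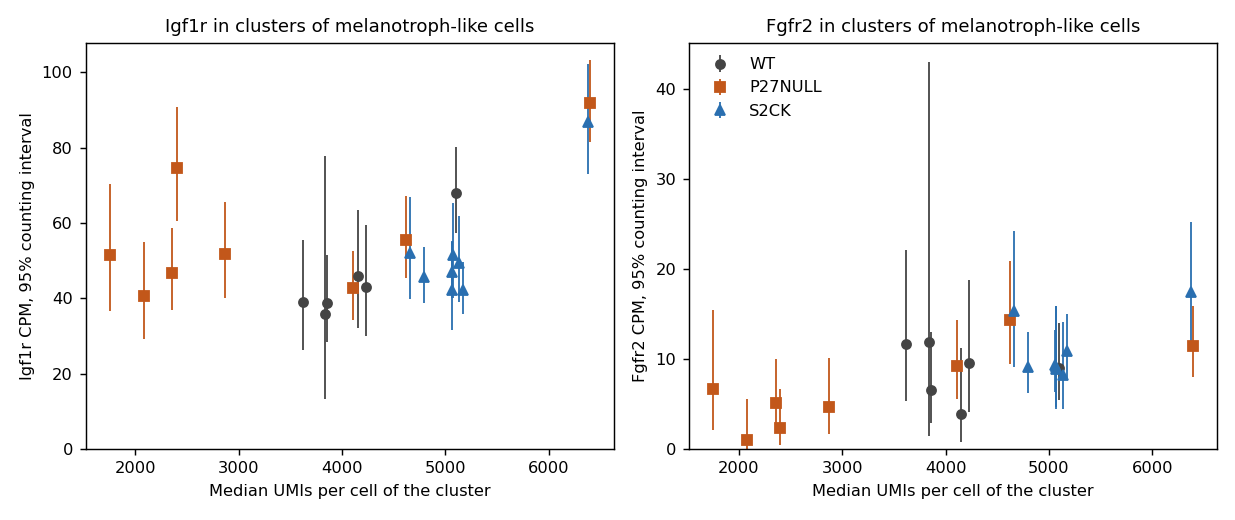
Level of Igf1r (left) and Fgfr2 (right) in each melanotroph-like cluster, in CPM with exact Poisson 95% intervals, against the median UMIs per cell of the cluster. Igf1r spreads from 35.7 to 92.0 CPM over the 3 libraries, and Fgfr2 from 0.990 to 17.5 CPM with its lowest values in the shallower P27NULL clusters.

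The comparisons between libraries asked whether receptor levels differed where p27 was lost and where a copy of Sox2 was deleted as well. A receptor was counted when it was past 1.5-fold with at least 20 UMIs in both libraries together, and the 3 comparisons share libraries, so their values are not independent. In SC-like cells, 0 of 5 receptors were past 1.5-fold in the library labelled P27NULL against WT, where 24.1% of 5864 genes were, 13.3% higher and 10.8% lower. The log2 ratios were 0.22 for Fgfr1, 0.37 for Igf1r, 0.13 for Met, -0.29 for Egfr and -0.49 for Insr, all with intervals that spanned 0. In S2CK against the library labelled P27NULL, 2 of 5 were higher, Erbb3 at log2 1.43 (-0.17 to 3.45) and Egfr at 0.65 (-0.58 to 2.03), and 0 were lower, where 14.0% of 6207 genes were higher and 19.9% lower (34.0% either way). Against the female P27NULL cells alone, of which only 18 were SC-like, the same ratios were -0.52 and -0.30, in the other direction, Igf1r stood at -1.26 and Met at -1.43. Those female cells had 247 CPM of Igf1r (128 to 431; 12 UMIs), the male P27NULL SC-like cells 76.3 CPM (49.4 to 113; 25 UMIs) and all S2CK SC-like cells 103 CPM (79.7 to 132), so that sex and genotype cannot be told apart for Igf1r. In S2CK against WT, 3 of 8 were past 1.5-fold, where 30.9% of 6699 genes were, 13.4% higher and 17.5% lower: Erbb2 at 0.77 (-0.63 to 2.32) and Erbb3 at 0.62 (-0.57 to 1.90) were higher, and Insr at -0.87 (-2.26 to 0.44) was lower. Each interval of these whole-library comparisons spans 0, so differences of the receptors between whole libraries were not detectable in SC-like cells at this depth.

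In melanotroph-like cells, where the counts were larger, Egfr alone of 5 receptors was past 1.5-fold in the library labelled P27NULL against WT, at log2 0.98 (-0.33 to 2.55), where 15.2% of 12874 genes were, 11.1% higher and 4.16% lower. Igf1r was higher there by log2 0.27 (0.08 to 0.47), while the median of all genes stood at 0.10, and the male P27NULL cells alone had 62.4 CPM against 52.2 CPM in the female ones. In S2CK against the library labelled P27NULL, 1 of 5 was past the fold, Egfr at -0.77 (-1.69 to 0.13), where 20.5% of 13450 genes were, 5.29% higher and 15.2% lower. Egfr was at 0.12 when only female P27NULL cells were used. Igf1r was lower by log2 -0.29 (-0.43 to -0.15) and Fgfr2 was higher by 0.41 (0.05 to 0.77), beside a median of all genes of -0.15 that was -0.02 with TMM scaling. With all S2CK cells set against the female P27NULL cells alone, Igf1r stood at -0.06 and Fgfr2 at 1.08. In S2CK against WT, Erbb3 was past 1.5-fold, at 0.66 (-0.13 to 1.54), 1 of 5, where 18.1% of 12994 genes were, 8.47% higher and 9.64% lower, and Igf1r was at -0.02. Met, with 13 UMIs in both libraries together and so not counted, was at -2.70 (-4.85 to -0.86). The shares of receptors past the fold stood close to those of all genes or rested on 1 or 2 genes of few UMIs.

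**Figure D4:**
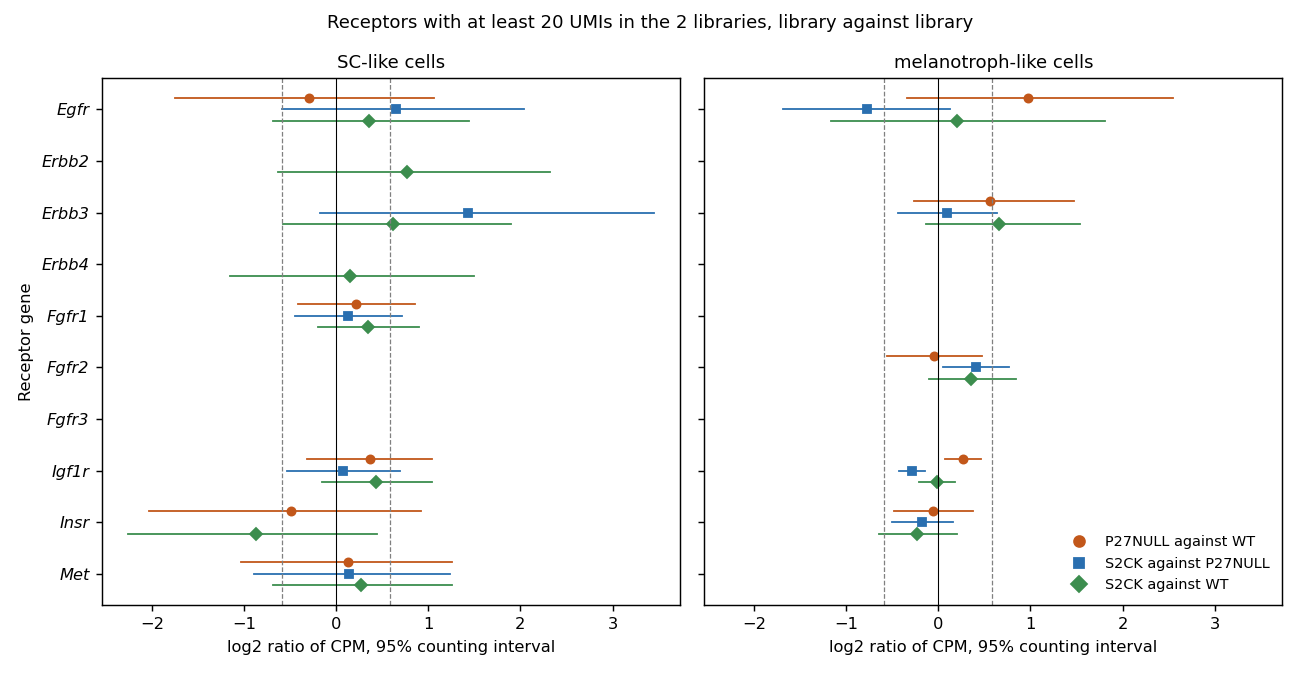
Log2 ratio of CPM between libraries of the receptors with at least 20 UMIs in both together, in SC-like and melanotroph-like cells, with exact conditional 95% intervals as bars and 1 library per genotype. Of the intervals drawn, those of Igf1r (0.27 and -0.29) and Fgfr2 (0.41) in melanotroph-like cells lie to 1 side of 0.

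Ligands of these receptors were counted in the same cells. Of the EGF family 9 of 11 genes had a row in some table, of the secreted FGFs 10 of 18, of the insulin family 2 of 4, and Hgf had one. Nrg2, a neuregulin that binds ERBB3 and ERBB4, was highest in melanotroph-like cells in 2 libraries, P27NULL and S2CK, with 36.8, 56.2 and 39.6 CPM in the 3 libraries from 217, 729 and 674 UMIs, and 42.1 CPM in corticotroph-like cells of WT. Nrg3 was counted in melanotroph-like cells at 3.56, 4.78 and 3.06 CPM with 1, 0 and 0 UMIs in SC-like cells, and Nrg4 at 1.70, 2.85 and 2.0 CPM. Tgfa, a ligand of EGFR, was 7.45, 16.0 and 19.1 CPM in SC-like cells and 2.37, 2.93 and 3.18 CPM in melanotroph-like cells. The WT level of Tgfa in SC-like cells rested on 4 UMIs, and the log2 ratio interval there was -0.41 to 3.32. Egf was highest in corticotroph-like cells in WT and in P27NULL, with 31.1 and 23.8 CPM, and stood at 6.61, 7.87 and 7.17 CPM in melanotroph-like cells. Nrg1 was 13.5, 2.09 and 9.58 CPM in gonadotroph-like cells, where 1 UMI is 2.70, 2.09 and 4.79 CPM, so these levels rest on few UMIs. Of its 25, 27 and 39 UMIs, 14, 22 and 33 lay in melanotroph-like cells, at 2.37, 1.70 and 1.94 CPM.

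Among the FGFs, Fgf9 was 15.4, 20.9 and 18.4 CPM in melanotroph-like cells and 26.5, 25.2 and 19.9 CPM in Pou1f1-lineage-like cells. Among types of at least 20 cells, endothelial-like, corticotroph-like and gonadotroph-like cells of WT also stood above melanotroph-like cells, at 24, 18 and 16 CPM. In S2CK corticotroph-like cells did so too, at 20 CPM, and in P27NULL none but the Pou1f1-lineage-like cells did. SC-like cells had 5.59, 5.32 and 1.59 CPM of Fgf9 from 3, 2 and 1 UMIs, a log2 ratio to melanotroph-like cells of -1.47 (-3.77 to 0.13), -1.97 (-5.03 to -0.11) and -3.53 (-8.84 to -1.04), so that the WT interval reached above 0. Fgf22 was 4.41, 3.47 and 7.59 CPM in melanotroph-like cells with 0, 0 and 1 UMIs in SC-like cells, where a count of 0 allows up to 5.59 and 7.98 CPM in WT and P27NULL and the S2CK log2 interval was -7.57 to 0.25, so a difference was not detectable. Fgf1, which binds all FGF receptors, was higher in SC-like cells, at 31.7, 31.9 and 44.5 CPM against 11.0, 7.02 and 7.06 CPM, and was 33.0, 19.8 and 23.0 CPM in corticotroph-like cells. Igf1, the ligand of IGF1R, was highest in macrophage-like cells at 47.4, 67.1 and 26.3 CPM, against 9.31, 10.6 and 23.8 CPM in SC-like cells, close to each other in S2CK. Hgf, the ligand of MET, had 7, 4 and 13 UMIs in all cells. Igf1 was also higher in SC-like than in melanotroph-like cells, by 5.49-fold, 2.55-fold and 12.3-fold, though in P27NULL the log2 interval was -0.57 to 2.79.

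**Figure D5:**
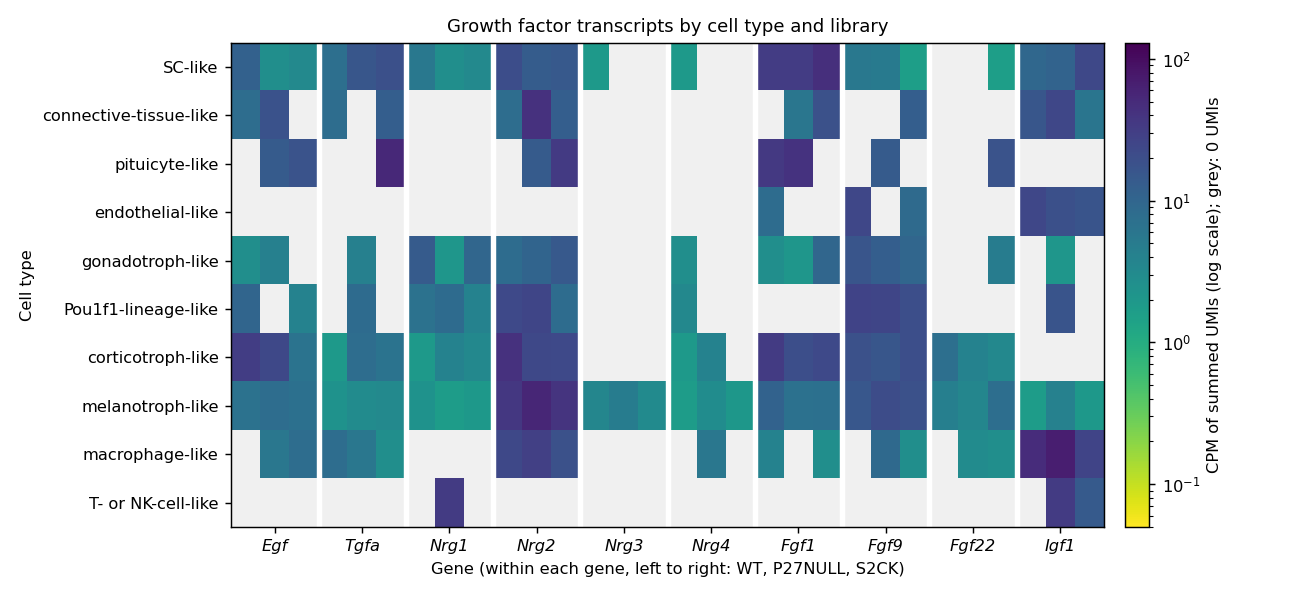
Level of the growth factor genes with at least 20 UMIs in 1 type of 1 library, by cell type and library, in CPM of summed UMIs. Nrg2 is high in melanotroph-like cells (36.8 to 56.2 CPM) and Igf1 in macrophage-like cells. Fgf9, at 15.4 to 20.9 CPM in melanotroph-like cells, stands higher in Pou1f1-lineage-like cells of each library. Tgfa and Fgf1 are higher in SC-like than in melanotroph-like cells. For Tgfa in WT the log2 interval of that ratio was -0.41 to 3.32.

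Co-receptors and related receptors were mostly on the side of the SC-like cells, with 5 of 8 genes higher in all 3 libraries by the 2-fold count. Sdc4, a heparan sulfate proteoglycan that presents FGFs, was 292, 245 and 250 CPM in SC-like cells and 26.3, 22.4 and 18.9 CPM in melanotroph-like cells. Fgfrl1, an FGF-binding receptor without a kinase domain, was 22.3, 26.6 and 31.8 CPM against 0, 0.463 and 0.176 CPM, and Igf2r, which clears IGF2, was 3.66-fold, 3.55-fold and 4.89-fold higher. Sdc1 and Sdc3 were the others. Fgfr4 and Kl had 0 UMIs in SC-like cells in every library and a melanotroph-like level below the limit that a count of 0 allows in SC-like cells, so a difference was not detectable. Among inhibitors of receptor signalling, 5 of 10 were higher in SC-like cells, with Lrig1, which promotes ErbB degradation, at 2.20-fold, 7.66-fold and 9.70-fold, Lrig3 at 9.88-fold, 14.0-fold and 16.8-fold, and Grb10, Grb14 and Ptprj. Of the adaptors 2 of 12 were higher (Gab2 and Irs1), of the RAS-ERK and PI3K-AKT kinases 3 of 17 (Mapk3, Pik3cb and Pik3r1), and of the shedding proteases 1 of 2 (Adam17), with 0 lower in these 3 lists. The 12.7% of all genes that were higher is the share to read these counts against. These calls rest on the ratio alone, and some log2 intervals reached below 0. Examples are Gab2 in WT (-1.65 to 4.04) and P27NULL (-1.29 to 3.91), Irs1 in P27NULL (-1.81 to 3.29) and Adam17 in WT (-0.66 to 2.48). Lrig1 in WT (-0.87 to 2.71) and Sdc3 in P27NULL (-0.52 to 2.85) did so too.

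Between libraries, most pathway lists held a few genes past 1.5-fold, to be read against the shares of all genes given above. The genes named here were picked as among the largest ratios of their lists, so an interval clear of 0 is no test. In SC-like cells of S2CK against the library labelled P27NULL, 4 of 14 kinases were lower past 1.5-fold and 0 were higher. Of all genes 19.9% were lower and 14.0% higher there, and the list median was -0.26 against -0.10 for all genes. Among the lower kinases were Akt1 at log2 -1.11 (-1.94 to -0.30) and Map2k2 at -0.66 (-1.15 to -0.18). The adaptor Irs2, which carries insulin and IGF1 receptor signals, was higher in SC-like cells of P27NULL than of WT at 1.34 (0.30 to 2.44) and stood at -0.87 (-1.80 to 0.04) in S2CK against P27NULL. In melanotroph-like cells Nrg2 was higher in P27NULL than in WT at 0.61 (0.39 to 0.84), and Plcg1, a direct effector of these receptors, was at 1.30 (0.66 to 1.99) there and at -1.24 (-1.68 to -0.82) in S2CK against P27NULL. Map2k1 stood at -0.79 (-0.97 to -0.61) in S2CK against P27NULL, with 0 of 17 kinases past 1.5-fold in P27NULL against WT. Fgf22 was higher in S2CK than in P27NULL at 1.13 (0.63 to 1.65). These contrasts also separate the sexes and pools, whose part was not tested.

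Genes with the most similar pattern over 27 pairs of cell type and library, among 12169 genes, were found by the correlation of log2(CPM + 10), which is a description since the pairs share libraries, depth and free RNA. For Fgfr1 they were Pdpn, Fzd2 and Prelp, with r of 0.93, 0.90 and 0.89. For Igf1r they were Smpd1 (0.84), Map1b (0.83) and Capsl (0.82), and for Egfr Prrx2 (0.83), Slc16a11 (0.82) and Tagln (0.81). Erbb3 was closest to Tmem47, Pla2g5 and Gprc5b, each at 0.78, Insr to Sorbs3 (0.81), and Fgfr2 to Lrrn2 (0.78). Erbb2, Erbb4, Fgfr3 and Met had fewer than 100 UMIs in all and were not ranked.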

How the data were processed

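Intermediate lobes were profiled by 10x 3′ single-cell RNA sequencing, 1 library per genotype. The deposited tables hold raw UMI counts per gene and cell. The authors aligned the reads with Cell Ranger 3.0.2 (STAR 2.5.1b in the submitters' processing notes, with R 3.6.0 and Seurat 3) to mm10 and kept cells with at least 50 genes and at most 10% mitochondrial counts, and no other filter on cells was applied here. The deposited libraries differ in their shallowest cells, with at least 502 UMIs and 213 genes per cell in WT, where 162 cells lie under 1000 UMIs, against 1005 and 502 in P27NULL and 1002 and 517 in S2CK, where none do. Counts were normalised per cell to 10000, reduced to 2000 variable genes and 20 principal components, and clustered per library by Leiden at resolution 1 (scanpy 1.11.5, leidenalg 0.10.2, igraph 0.11.9). A list of 16 genes was kept out of the clustering. A cluster was named when at least 3 fixed markers were detected and its marker score reached 0.3 and led the next by 0.1; the cut-offs were picked once clusters had been inspected, and 12, 181 and 11 cells of WT, P27NULL and S2CK stayed unnamed. Scrublet called 11 of 9661 cells, so the caller had not worked, and doublets were not removed but the cells of the highest scores were left out as an alternative.

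UMIs were summed per library and cell type. CPM has an exact Poisson 95% interval, a share of cells an exact Clopper-Pearson one and a ratio an exact conditional one (Python 3.11.15, scipy 1.17.1), all for counting error only. With 1 library per genotype no test was run. Genes with at least 20 UMIs were counted past 1.5-fold between libraries and 2-fold between cell types, and a sum at 0 was taken as 3 UMIs for a bound. Thinned shares are expected shares at 1000 UMIs per cell, leaving out 15, 0 and 0 SC-like and 19, 0 and 0 melanotroph-like cells below that. The ratio script was tested on simulated data. The receptors, ligand and pathway lists were chosen with earlier results of these data known. All 10 receptors are named, with from each pathway list up to 4 genes of the largest ratio, every ligand with at least 20 UMIs in 1 type of 1 library, and the 3 genes of the most similar pattern for receptors with at least 100 UMIs. Alternatives were other filters on cells, clustering, TMM scaling (edgeR 4.0.16), scaling without Pomc, mitochondrial and ribosomal genes, thinning, cells of 1 sex and other UMI minima. Sequences and positions are from RefSeq on GRCm38.p6.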

Additional observations from a re-analysis of the deposited data

How the results depend on the processing

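Of 90 alternative counts of receptors 75 stayed within 1.5 times the count reported, and of 284 alternative log2 ratios of single receptors 275 stayed within their counting interval. Part of this agreement was fixed in advance. The filters of at least 1000 UMIs and at least 500 genes removed no cell of P27NULL or S2CK, so S2CK against P27NULL could not change under them. With cells of 1 sex, 13 ratios stayed within their interval, 4 left it and 3 had the opposite sign. The count of receptors higher in SC-like than melanotroph-like cells was 6 under all alternatives but 2, with 4 at a minimum of 50 UMIs and, in the alternative added after seeing the data, 5 when S2CK was left out, and the count lower was 0 throughout. In SC-like cells the count for P27NULL against WT was 0 and became 1 without the cells of the highest Scrublet scores (Insr), 1 after thinning to 1000 UMIs (Igf1r, then at log2 1.14) and 1 at a minimum of 10 UMIs. For S2CK against P27NULL it went from 2 to 1 after thinning, to 0 at 50 UMIs and to 4 at 10 UMIs, and for S2CK against WT from 3 to 0 at 50 UMIs. In melanotroph-like cells the count for P27NULL against WT went from 1 to 2 within the male cells and at 10 UMIs and to 0 at 50 UMIs. The count for S2CK against P27NULL went to 2 after thinning and at 10 UMIs and to 0 at 50 UMIs, and for S2CK against WT it went to 0 after thinning and to 2 at 10 UMIs. With all S2CK cells against female P27NULL cells, 3 ratios had the opposite sign, at -0.30 for Egfr and -0.52 for Erbb3 in SC-like cells and 0.12 for Egfr in melanotroph-like cells, and in SC-like cells, of which 18 were female in P27NULL, Igf1r stood at -1.26 and Met at -1.43. Of 60 shares of cells with a UMI, 46 lay outside their interval after thinning. The cause was not tested for any of these except the higher or lower UMI minima, which change how many receptors are counted. No paired analysis was possible because each genotype is 1 library. As for depth, in SC-like cells 1 UMI is 1.86, 2.66 and 1.59 CPM in WT, P27NULL and S2CK.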

Other observations

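Fgf10, a ligand of the FGFR2 form found in epithelia, had 19, 8 and 8 UMIs in all cells of WT, P27NULL and S2CK. Pituicyte-like cells held 14, 4 and 0 of them (163, 54.4 and 0 CPM) among 42, 19 and 13 cells, so only in WT were most Fgf10 UMIs there. Fgf10 lay under the minimum of 20 UMIs used to name ligands and was chosen after its values were seen. The count of 0 in pituicyte-like cells of S2CK allows a level of up to 51.8 CPM, under the WT level and close to that of P27NULL.

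In P27NULL, where cells of both sexes were sampled in 1 library, Igf1r in melanotroph-like cells was 52.2 CPM in 615 female cells and 62.4 CPM in 2746 male cells, and Fgfr2 was 5.04 CPM from 14 UMIs in female cells and 8.55 CPM from 86 UMIs in male cells. In SC-like cells the order for Igf1r was the other way, with 247 CPM in 18 female and 76.3 CPM in 85 male cells, and Met was 103 CPM from 5 UMIs and 24.4 CPM from 8 UMIs. In S2CK, with 93.9% female cells, Fgfr2 stood at 10.6 CPM in melanotroph-like cells.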
